A study of Sus scrofa with 6 samples.

Results

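Basement membranes are thin sheets of matrix that lie under the oviduct epithelium and around smooth muscle fibres, capillaries and nerves. Collagen IV and laminin each form a network, nidogen, perlecan and agrin link the networks, and integrins and dystroglycan hold cells to them. The oviduct wall is remodelled over the cycle, and the ampulla is the segment where the egg is fertilised.

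The genes described here are 37 named components of this system in pig (Sus scrofa) oviduct ampulla: collagens IV, XV and XVIII, laminin chains, linkers, dystroglycan and integrin chains. They were taken by gene symbol, and 36 of the 37 had a row among the 35670 genes of the deposited count table. The laminin chain LAMA2 had no identifier with its symbol in the name table and was not analysed here. Of the 36, 35 passed the filter on low counts and were tested. LAMA1, the laminin chain of embryonic basement membranes, did not pass, with 4, 2 and 24 counts in replicates 1, 2 and 3 of the post-ovulatory stage and 0, 22 and 1 in those of the early luteal stage.

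Messenger RNA was counted in 6 libraries of female pig ampulla tissue, 3 of them post-ovulatory and 3 early luteal, the time at which corpora lutea form. No treatment, genotype or transgene is involved, and the labels do not name breed, age or days after ovulation. The comparison that the design implies is early luteal against post-ovulatory tissue. Nothing in the labels states that the replicates are separate animals, so p-values cover the spread among these samples only, and that spread may be technical.

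Library totals ran from 7370723 to 30954222 counts. Levels are CPM, counts divided by the TMM-scaled library total and multiplied by 1e6, so they can be compared between libraries for a gene. They were not divided by transcript length, so levels were not compared between genes. Early luteal replicate 2 stood apart: on the first principal component (55.9% of the variance) it lay at 176, and the other 5 libraries lay between -51.0 and 2.39. Marker genes of epithelium (EPCAM, CDH1, KRT7, KRT8, KRT18), ciliated cells, smooth muscle and fibroblasts were counted in every library. The secretory marker OVGP1 differed widely within a stage. It stood at 7302, 156 and 10690 CPM in post-ovulatory and at 292, 1017 and 2356 CPM in early luteal replicates, so post-ovulatory replicate 2 was lowest. In the pieces of tissue measured, fewer cells of a type and less RNA per cell cannot be told apart.

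Levels of the integrin chains ITGA8, ITGAV and ITGB6 were higher, and those of ITGA3, ITGA6 and several basement membrane proteins lower, in every early luteal library than in any post-ovulatory one. Of the 3 alpha chains that bind RGD ligands (short Arg-Gly-Asp motifs), ITGA8 and ITGAV stood higher and ITGA5 lower. ITGA8, ITGAV and ITGB6 stood 2.28-fold, 1.73-fold and 4.33-fold higher in early luteal tissue. ITGA3, ITGA6, LAMC1, DAG1 and COL15A1 stood 1.56-fold, 1.52-fold, 1.47-fold, 1.54-fold and 2.08-fold lower. In these 8 genes the libraries of the stages did not overlap. None of these differences passed the threshold. By edgeR's quasi-likelihood test the count of calls was 0 of the 35 tested genes, and 0 of 17920 genes in the whole table (0%), at a Benjamini-Hochberg adjusted p of 0.05. The lowest adjusted p among the 35 was 0.645 (ITGB6).

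At an unadjusted p under 0.05 the test counted 3 of the 35 genes higher in early luteal tissue (ITGA8, ITGAV and ITGB6), or 8.57%, where 3.57% of all tested genes were. It counted 3 lower (COL4A4, COL15A1 and ITGA3), also 8.57%, against 3.54% of all tested genes. In either direction these were 6 of the 35 genes (8.57% each way), against 7.11% of all tested genes. The stages did not overlap in 4 genes higher in early luteal tissue, or 11.4%, against 7.61% of all tested genes. They did not overlap in 8 genes lower there, or 22.9%, against 9.57% of all tested genes. In either direction these were 12 genes, or 34.3%, against 17.2%. Over all 35 genes, 25 had a log2 fold change (early luteal over post-ovulatory) below 0 and the median was -0.31, whereas 51.8% of all tested genes lay below 0 and their median was -0.03. Without early luteal replicate 2 the median of the 35 was -0.11 and 20 lay below 0. DESeq2 called 0 of the 35, where it called 0.971% of all tested genes. By limma voom the calls were 0 of the 35 and 0 of all tested genes. The lowest DESeq2 adjusted p was 0.0749 (ITGB6).

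**Figure D1:**
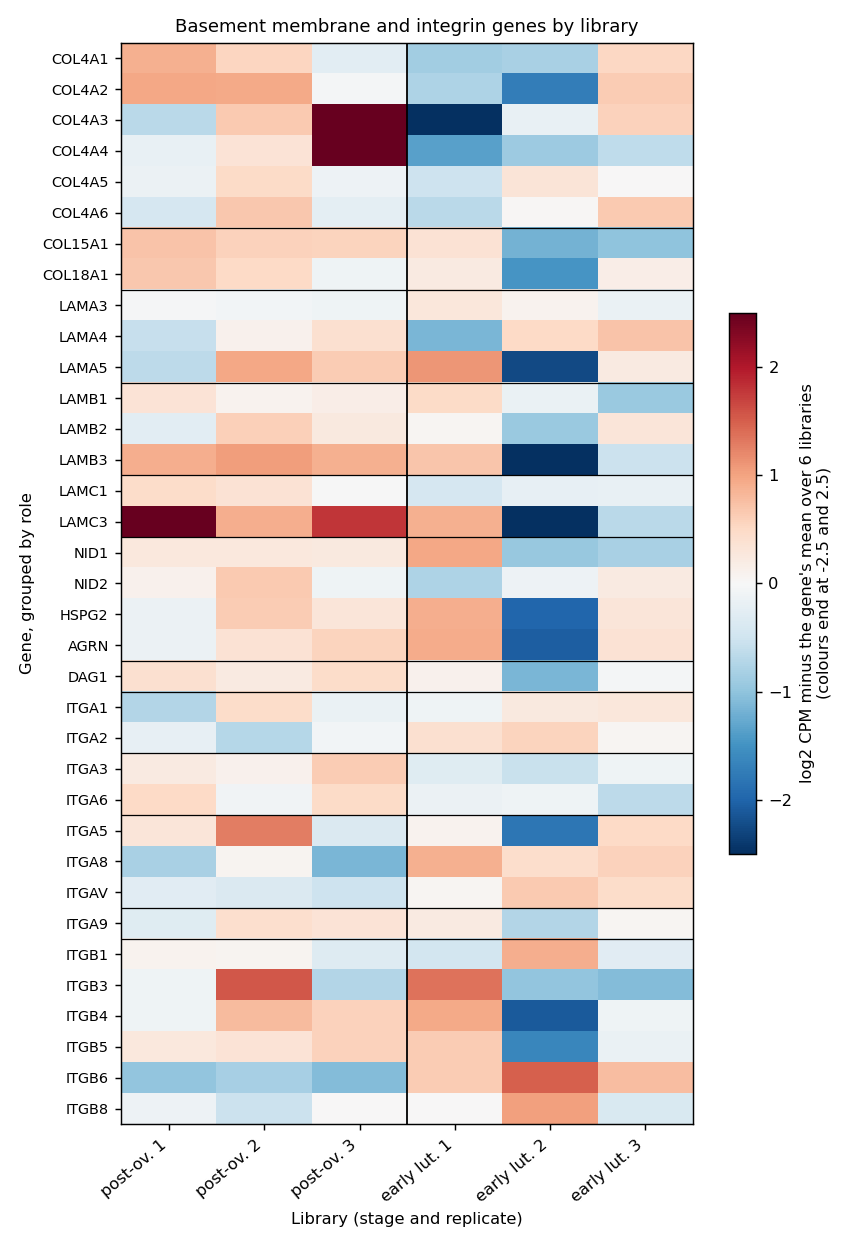
Level of each of the 35 tested genes (rows, grouped by role) in each of the 6 libraries (columns), as log2 CPM minus the mean of the gene over the libraries, red above and blue below that mean. Early luteal replicate 2 holds the lowest value of 16 of the 35 genes, while ITGA8, ITGAV and ITGB6 are above their means in all 3 early luteal libraries or close to them.

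Integrins are pairs of an alpha and a beta chain, and the alpha chain largely sets which ligand is bound. ITGA8, which pairs with ITGB1 and binds nephronectin and tenascin C, is known from smooth muscle and stromal cells. Its locus lies at chr10:46132887-46303659 (Sscrofa11.1, RefSeq), and its Ensembl gene is ENSSSCG00000011046. ITGA8 stood at 35.9, 66.4 and 28.5 CPM in post-ovulatory replicates 1, 2 and 3 and at 117, 86.4 and 94.3 CPM in early luteal replicates 1, 2 and 3. Every early luteal library lay above every post-ovulatory one, with post-ovulatory replicate 2 the nearest of its stage. The means were 99.3 ± 15.9 CPM (SD, n = 3) and 43.6 ± 20.1 CPM, a log2 fold change of 1.19 ± 0.35 (SE; edgeR, unadjusted p = 0.00918, Benjamini-Hochberg adjusted p = 0.649).

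The summed level of 6 smooth muscle markers (MYH11, DES, CNN1, ACTG2, ACTA2 and TAGLN, none at 0) is given beside ITGA8. It ranged from 2848 to 5561 CPM in post-ovulatory and from 982 to 9220 CPM in early luteal libraries. It was lowest in early luteal replicate 1, the library with the highest ITGA8, and highest in early luteal replicate 3. The part of smooth muscle in the ITGA8 difference was not tested.

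ITGAV, the αv chain, binds RGD motifs in vitronectin, fibronectin and the latent form of transforming growth factor beta (TGF-beta). The gene lies at chr15:91604666-91711843. ITGAV stood at 39.5, 37.8 and 33.7 CPM in post-ovulatory and at 50.2, 75.6 and 66.2 CPM in early luteal replicates. The post-ovulatory libraries were close together, and all 3 early luteal libraries lay above them. The log2 fold change was 0.79 ± 0.26 (SE; edgeR, adjusted p = 0.664).

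ITGB6 is an epithelial beta chain that pairs only with ITGAV and activates latent TGF-beta. Its counts were low, at 12, 8 and 26 against 47, 41 and 50 (post-ovulatory first). These corresponded to 0.893, 1.01 and 0.831 CPM in post-ovulatory and to 3.03, 5.55 and 3.33 CPM in early luteal replicates. The stages were separated by a wide gap, the lowest early luteal value being 3.03 CPM and the highest post-ovulatory value 1.01 CPM. The log2 fold change was 2.11 ± 0.61 (SE; edgeR, unadjusted p = 0.00767, adjusted p = 0.645), and 1.80 without early luteal replicate 2. Of 6 epithelial markers listed, KRT19 had no row with its symbol, and none of the other 5 was at 0. Their sum ranged from 1642 to 2272 CPM in post-ovulatory and from 1927 to 2411 CPM in early luteal libraries. The markers went both ways: CDH1, EPCAM and KRT7 had log2 fold changes of 0.33, 0.56 and 0.72, and KRT8 and KRT18 of -0.63 and -0.42. The part of epithelium in the ITGB6 difference was not tested.

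The other beta chains overlapped between the stages. ITGB1, the common partner of most alpha chains, stood at 248, 245 and 188 CPM in post-ovulatory and at 171, 443 and 193 CPM in early luteal replicates. Early luteal replicate 2 alone lay above the post-ovulatory range, so the log2 fold change of 0.24 turned to -0.32 without it. ITGB8, which also pairs with ITGAV, was also highest in that library, at 26.5, 19.8 and 29.3 CPM against 29.4, 58.9 and 22.3 CPM. Its log2 fold change of 0.54 was 0.03 without early luteal replicate 2.

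ITGB5, another ITGAV partner, and ITGB4, the hemidesmosome chain that pairs with ITGA6, went the other way in that library. ITGB5 stood at 51.4, 54.2 and 63.7 CPM in post-ovulatory and at 66.6, 13.7 and 38.0 CPM in early luteal replicates. For ITGB4 the values were 18.0, 33.9 and 29.4 CPM against 37.7, 4.47 and 18.2 CPM, so the highest and the lowest library were both early luteal. ITGB3, the vascular and platelet partner of ITGAV, was sparse, with 35, 68 and 52 counts against 116, 10 and 19. Among the ITGAV partners, then, the stages were separated only in ITGB6.

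ITGA3 and ITGA6 are the alpha chains of the laminin receptors of epithelium. ITGA3 stood at 69.0, 64.0 and 91.8 CPM in post-ovulatory and at 48.4, 40.2 and 55.5 CPM in early luteal replicates. ITGA6 stood at 282, 188 and 277 CPM in post-ovulatory and at 180.3, 183 and 126 CPM in early luteal replicates. In both genes all early luteal libraries lay below all post-ovulatory ones, although for ITGA6 the nearest libraries differed by little (183 and 188 CPM). The log2 fold changes were -0.64 ± 0.27 (SE) for ITGA3 and -0.61 ± 0.29 for ITGA6, both with an adjusted p of 0.685 in edgeR. Without early luteal replicate 2 they were -0.53 and -0.70.

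The ITGA6 level did not follow ITGB4, its partner in hemidesmosomes: the ratio of their counts was 15.7, 5.55 and 9.42 in post-ovulatory replicates and 4.78, 40.9 and 6.94 in early luteal ones. Early luteal replicate 2 had the highest ratio, since ITGB4 was low there and ITGA6 was not.

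The collagen receptors ITGA1 and ITGA2 stood higher on average in early luteal tissue, with ITGA2 the clearer. ITGA2 stood at 5.81, 4.04 and 6.43 CPM in post-ovulatory and at 8.89, 9.89 and 6.92 CPM in early luteal replicates. The stages did not overlap, but the gap between the nearest libraries was narrow (log2 fold change 0.65 ± 0.46, SE; edgeR, adjusted p = 0.769). ITGA1 overlapped, at 16.4 ± 6.74 CPM (SD, n = 3) in post-ovulatory and 19.0 ± 2.71 CPM in early luteal tissue. ITGA5, the fibronectin receptor chain, was lowest in early luteal replicate 2 (3.12 CPM) and highest in post-ovulatory replicate 2 (27.7 CPM). ITGA9, a receptor chain for tenascin C, ranged from 32.3 to 53.5 CPM in post-ovulatory and from 24.0 to 46.5 CPM in early luteal libraries.

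**Figure D2:**
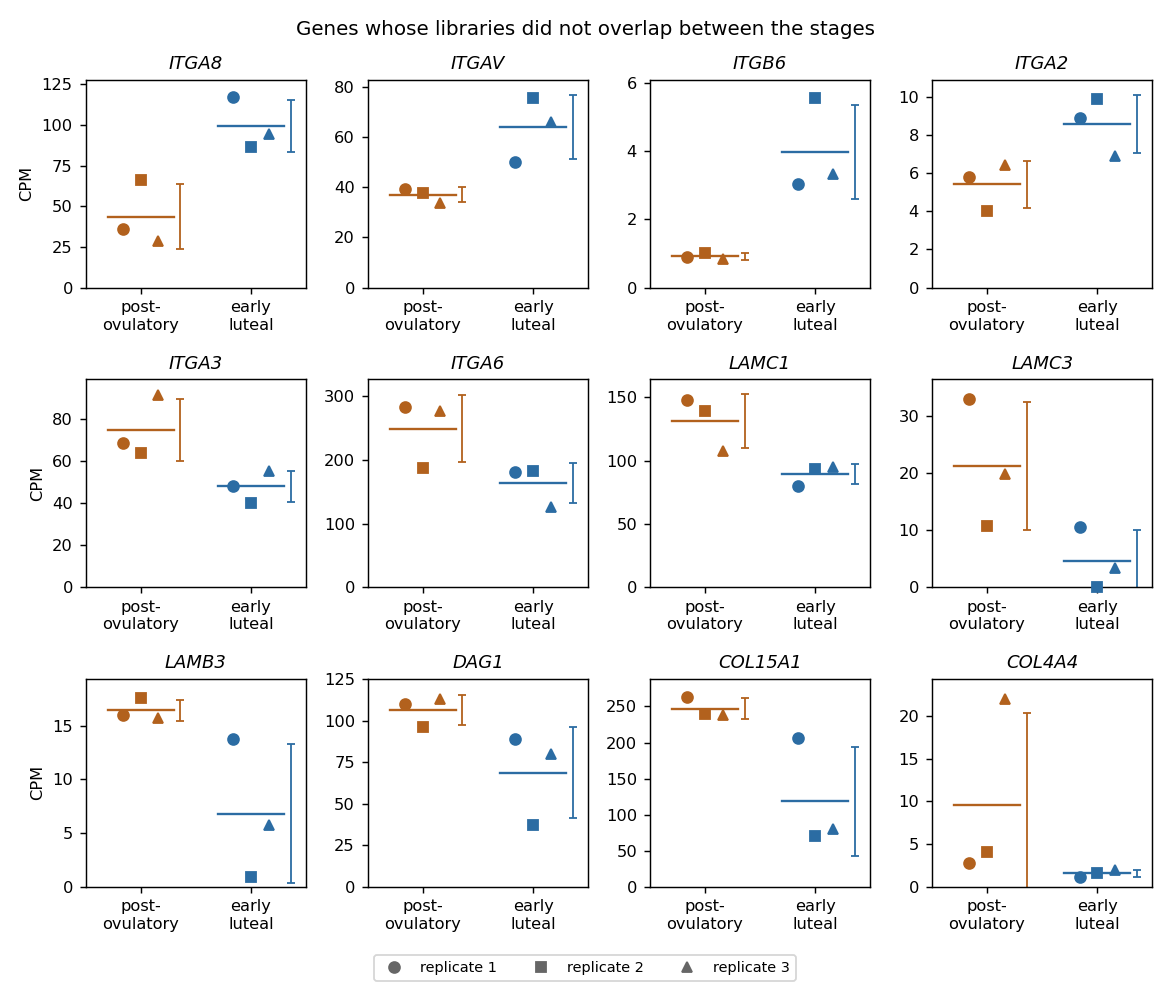
CPM of the 12 genes whose libraries did not overlap between the stages, with post-ovulatory libraries in brown and early luteal in blue; symbols mark the replicate, horizontal lines the mean and error bars the SD (cut off at 0 where they would pass below it). ITGA8, ITGAV, ITGB6 and ITGA2 are higher in all 3 early luteal libraries and the other 8 genes are lower, and for LAMC3, LAMB3, DAG1 and COL15A1 the early luteal libraries are spread widely.

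Laminins are trimers of an alpha, a beta and a gamma chain, and LAMC1 is the gamma chain of most of them. LAMC1 (chr9:124283668-124405967) stood at 148, 139 and 108 CPM in post-ovulatory and at 80.1, 93.3 and 94.8 CPM in early luteal replicates. The early luteal libraries were close together and all lay below the lowest post-ovulatory one. The log2 fold change was -0.56 ± 0.24 (SE; edgeR, unadjusted p = 0.0506, adjusted p = 0.685), and -0.59 without early luteal replicate 2.

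LAMC3 and LAMB3 also lay lower in every early luteal library, but with a wide spread. LAMC3, a gamma chain of less common laminins, stood at 33.1, 10.7 and 19.8 CPM in post-ovulatory replicates. In early luteal replicates LAMC3 had 164, 0 and 52 counts, or 10.6, 0 and 3.46 CPM, and the floor of 3 counts in replicate 2 corresponds to 0.406 CPM. Post-ovulatory replicate 2 and early luteal replicate 1 nearly met (10.7 and 10.6 CPM). LAMB3, the beta chain of epithelial laminin-332, stood at 16.01, 17.6 and 15.7 CPM against 13.7, 0.948 and 5.79 CPM. The post-ovulatory LAMB3 values were almost equal and early luteal replicate 1 lay just below them, so most of its log2 fold change of -1.25 came from early luteal replicates 2 and 3. It was -0.75 without replicate 2 and -2.24 without replicate 1.

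The alpha chains, which carry the binding sites for integrins and dystroglycan, showed no such separation. LAMA3, the epithelial alpha chain that pairs with LAMB3, was the steadiest of the laminin chains, at 31.2 ± 0.846 CPM (SD, n = 3) in post-ovulatory and 34.4 ± 5.18 CPM in early luteal tissue. LAMA5, the widespread alpha chain of adult epithelium and vessels, stood at 48.3, 149 and 119 CPM in post-ovulatory and at 165, 15.8 and 89.2 CPM in early luteal replicates. The early luteal stage held both its highest and its lowest library. Its log2 fold change of -0.22 became 0.27 without early luteal replicate 2.

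LAMA4, the alpha chain of vessels and smooth muscle, was low in early luteal replicate 1 (25.4 CPM) and post-ovulatory replicate 1 (37.5 CPM), and ranged from 60.4 to 92.2 CPM in the other libraries. Early luteal replicate 1 was also the library with the lowest summed smooth muscle markers (982 CPM). Post-ovulatory replicate 3, however, had the lowest sum of its stage (2848 CPM) and the highest LAMA4 of its stage (74.3 CPM). The part of smooth muscle in the LAMA4 level was not tested. Among the beta chains, LAMB1 stood at 71.4 ± 6.62 CPM (SD, n = 3) against 58.2 ± 27.3 CPM and LAMB2, of vessels and muscle, at 103 ± 29.6 against 80.7 ± 31.9 CPM, post-ovulatory first, and both overlapped.

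Dystroglycan, encoded by DAG1, is the other main laminin receptor. DAG1 stood at 109.9, 96.2 and 113 CPM in post-ovulatory and at 89.0, 37.5 and 80.1 CPM in early luteal replicates. All early luteal libraries were lower, replicate 2 by far the most. The log2 fold change was -0.63 ± 0.34 (SE; edgeR, adjusted p = 0.713), and -0.33 without that library.

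The genes of collagen IV, the main collagen of basement membranes, lie in 3 pairs of neighbouring genes. COL4A1 (chr11:76858332-76997409) and COL4A2 (chr11:76996885-77161617) form the common trimer. Their RefSeq loci overlap by 525 bases, and COL4A3 and COL4A4 overlap by 663 bases on chromosome 15. The loci of COL4A5 and COL4A6 do not overlap and lie 207.9 kb apart. No source used here names the strand setting of the counting, and reads in those short overlaps could have been assigned to either gene.

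COL4A1 stood at 253, 198 and 114 CPM in post-ovulatory and at 74.1, 77.6 and 195 CPM in early luteal replicates. For COL4A2 the values were 207, 203 and 101 CPM against 62.2, 31.7 and 164 CPM. Early luteal replicate 3 lay among the post-ovulatory libraries in both genes, and the other 2 early luteal libraries lay below all of them. The log2 fold changes were -0.70 ± 0.46 (SE) and -0.99 ± 0.57 (edgeR, adjusted p = 0.748 and 0.729). Both sizes depended on single libraries: COL4A1 ranged from -1.32 (without early luteal replicate 3) to -0.44 (without post-ovulatory replicate 1), and was -0.46 without early luteal replicate 1. COL4A2 ranged from -1.87 (without early luteal replicate 3) to -0.60 (without early luteal replicate 2). The ratio of COL4A1 to COL4A2 counts lay between 0.975 and 1.22 in 5 libraries and was 2.45 in early luteal replicate 2.

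COL4A3 and COL4A4, chains of the collagen IV of kidney and lung membranes, were sparse except in post-ovulatory replicate 3. COL4A4 had 37, 32 and 688 counts in post-ovulatory and 18, 12 and 30 counts in early luteal replicates, or 2.75, 4.04 and 22.0 CPM against 1.16, 1.63 and 2.00 CPM. COL4A3 had 15, 24 and 364 counts against 2, 12 and 43. Post-ovulatory replicate 3 was thus the highest library in both genes. The COL4A4 log2 fold change was -2.60 ± 0.86 (SE; edgeR, unadjusted p = 0.0159, adjusted p = 0.664), and -1.07 without post-ovulatory replicate 3 (unadjusted p = 0.202). That of COL4A3 was -1.79, and -0.40 without the same library.

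COL4A5 and COL4A6, the X-linked pair, had similar means at both stages. COL4A5 stood at 119 ± 31.8 CPM (SD, n = 3) in post-ovulatory and 109 ± 30.9 CPM in early luteal tissue, and COL4A6 at 45.1 ± 19.6 and 45.5 ± 20.3 CPM. Their log2 fold changes were -0.13 ± 0.31 (SE) and 0.02 ± 0.42. Both were lowest in early luteal replicate 1 (77.3 and 26.5 CPM) and highest in post-ovulatory replicate 2 (156 and 67.6 CPM).

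**Figure D3:**
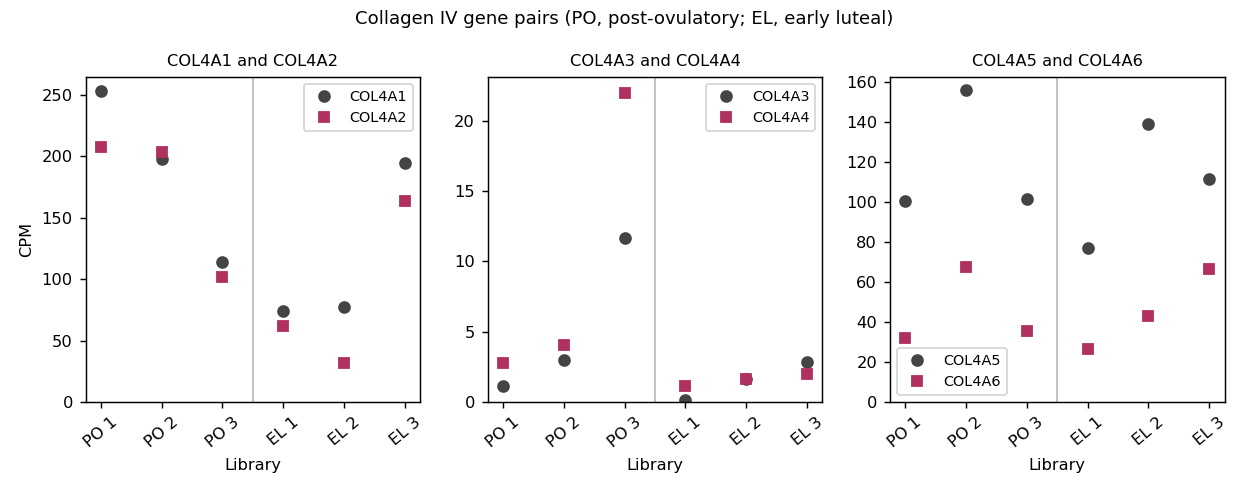
CPM of the collagen IV genes in each library, drawn as pairs of neighbouring genes on linear axes that start at 0; the grey line divides post-ovulatory (PO) from early luteal (EL) libraries. COL4A1 and COL4A2 are low in early luteal replicates 1 and 2 but not 3, COL4A3 and COL4A4 are high in post-ovulatory replicate 3, and COL4A5 and COL4A6 overlap between the stages.

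Collagens XV and XVIII are heparan or chondroitin sulfate collagens that tie basement membranes to the matrix around them. COL15A1 (chr1:240718128-240829188) stood at 263, 239.6 and 238 CPM in post-ovulatory and at 206, 70.9 and 79.8 CPM in early luteal replicates. The post-ovulatory values were close together and every early luteal library lay lower, replicate 1 by the least. The log2 fold change was -1.05 ± 0.42 (SE; edgeR, unadjusted p = 0.0349, adjusted p = 0.685). Leaving out early luteal replicate 1 gave -1.70, and leaving out replicate 2 gave -0.79. COL18A1, the source of the angiogenesis inhibitor endostatin, overlapped, at 39.8 ± 10.3 CPM (SD, n = 3) against 26.9 ± 13.9 CPM.

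The linkers did not separate the stages. HSPG2 (perlecan) stood at 182, 312 and 248 CPM in post-ovulatory and at 375, 50.4 and 246 CPM in early luteal replicates. AGRN (agrin) stood at 88.6, 125 and 143 CPM against 186, 23.3 and 126 CPM. Both heparan sulfate proteoglycans had their highest and their lowest library within the early luteal stage. Without early luteal replicate 2 their log2 fold changes turned from -0.14 to 0.33 and from -0.08 to 0.39.

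NID1, the nidogen that joins laminin to collagen IV, was nearly equal in the post-ovulatory libraries, at 154, 156 and 152 CPM, and stood at 254, 67.2 and 73.7 CPM in early luteal replicates. Early luteal replicate 1 lay above the post-ovulatory values, and the other early luteal libraries lay well below them. The log2 fold change of -0.23 (edgeR, adjusted p = 0.924) was -1.11 without early luteal replicate 1, and it turned to 0.089 without replicate 2 and to 0.054 without replicate 3. NID2, its paralog, stood at 44.1 ± 12.5 CPM (SD, n = 3) against 32.9 ± 10.9 CPM. The ratio of NID1 to NID2 counts was 11.8 in early luteal replicate 1, and 1.70 to 4.42 in the other libraries.

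**Figure D4:**
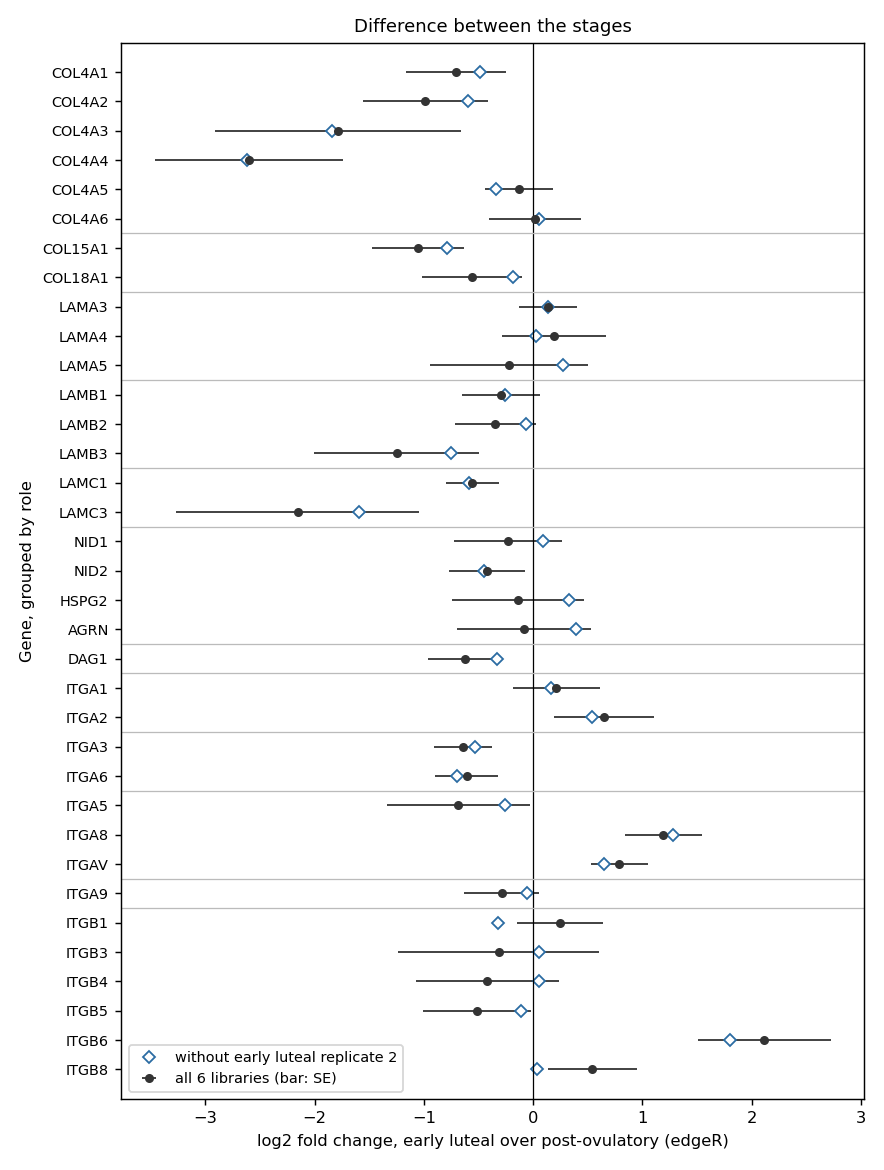
log2 fold change of each of the 35 tested genes, early luteal over post-ovulatory, from edgeR with all 6 libraries (black, bars are the SE) and without early luteal replicate 2 (open blue diamonds). ITGA8, ITGAV and ITGB6 are the genes furthest above 0 in both fits, while LAMA5, HSPG2, AGRN, NID1, ITGB1, ITGB3 and ITGB4 change sign.

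Early luteal replicate 2 held the lowest value of 16 of the 35 genes (45.7%), and 39.2% of all tested genes were lowest in it as well. Counts of the 36 genes made up 0.167% of that library and between 0.242% and 0.332% of the others. Fibroblast markers ran lower in early luteal tissue beside the basement membrane genes: all 6 (DCN, LUM, PDGFRA, COL1A1, COL1A2 and COL3A1, none at 0) had a log2 fold change below 0. The values were -0.44 (DCN), -0.58 (LUM) and -0.55 (PDGFRA), and ran from -1.95 (COL1A1) to -1.19 (COL1A2) in the collagen genes. PDGFRA and COL1A2 overlapped between the stages. The summed level of the 6 ranged from 1104 to 2341 CPM in post-ovulatory and from 670.2 to 993.9 CPM in early luteal libraries. All 5 leukocyte markers also had a log2 fold change below 0, as did 51.8% of all tested genes, but all 5 overlapped between the stages. Their sum ranged from 37.4 to 102 CPM in post-ovulatory and from 24.1 to 91.7 CPM in early luteal libraries. Summed endothelial markers (6 of the 7 listed had a row, and CLDN5 was at 0 in early luteal replicate 2) overlapped, at 318 to 485 CPM and 372 to 558 CPM. Of these 6, 2 had a log2 fold change above 0 and 4 below 0. EMCN held much of the sum, with 434 of the 558 CPM in early luteal replicate 2. PECAM1 (12.5 CPM) and CDH5 (14.9 CPM) were lowest in that library. The part of these cell types in the differences above was not tested.

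Among the proteins that build the collagen network, SERPINH1 and SPARC stood lower in early luteal tissue. In a list of 26 genes for basement membrane assembly and minor components, all 26 were tested, 11 were higher and 15 lower, and the median log2 fold change was -0.09. edgeR called 0 of them, while DESeq2 called 2, against 0.971% of all tested genes. At an unadjusted p under 0.05 edgeR counted 1 higher (3.85%) and 2 lower (7.69%), against 3.57% and 3.54% of all tested genes. The stages did not overlap in 3 genes, all lower in early luteal tissue, or 11.5%, against 17.2% of all tested genes. SERPINH1, the chaperone that folds collagens including collagen IV, stood at 480.5, 327 and 311 CPM in post-ovulatory and at 143, 76.8 and 109 CPM in early luteal replicates. Its stages were far apart (log2 fold change -1.77 ± 0.33, SE; edgeR, adjusted p = 0.503; DESeq2, adjusted p = 0.000432). SPARC, a collagen-binding matrix protein, stood at 356, 300.1 and 309 CPM against 181, 92.5 and 137 CPM (edgeR, adjusted p = 0.575; DESeq2, adjusted p = 0.0268). Both chaperone and binder also serve the fibrillar collagens, whose genes COL1A1 and COL3A1 are among the lower fibroblast markers. SMOC2, a SPARC relative, stood higher but overlapped, at 14.7, 21.9 and 5.98 CPM against 14.4, 77.2 and 39.7 CPM. P4HB, the disulfide isomerase subunit of prolyl hydroxylase, stood at 321, 177 and 235 CPM against 157, 60.6 and 201 CPM.

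Of 13 integrin ligands outside the basement membrane, 5 were higher and 8 lower, with a median of -0.06, and edgeR called 0. At an unadjusted p under 0.05 it counted 1 higher, or 7.69%, against 3.57% of all tested genes. It counted 0 lower, against 3.54%. The stages did not overlap in 1 gene, or 7.69%, against 17.2% of all tested genes. Both counts were of TNC, which encodes tenascin C, a ligand of ITGA8, ITGA9 and ITGAV integrins. TNC stood at 39.2, 44.6 and 29.5 CPM in post-ovulatory and at 73.3, 79.8 and 67.8 CPM in early luteal replicates, with every early luteal library above every post-ovulatory one (log2 fold change 0.96 ± 0.26, SE; edgeR, adjusted p = 0.632). THBS1, another ITGAV ligand, was spread from 11.3 to 168 CPM within the early luteal stage and from 23.0 to 36.4 CPM within the post-ovulatory stage. VTN, for the ITGAV ligand vitronectin, had few counts, a log2 fold change of -0.90 and overlapped. NPNT, for the ITGA8 ligand nephronectin, is in the assembly list, and it also overlapped (log2 fold change -0.49). MFGE8, an RGD protein of milk fat globules, stood at 56.4, 69.3 and 31.8 CPM against 24.3, 12.3 and 39.6 CPM. POSTN (periostin) stood at 176, 237 and 140 CPM against 163, 434 and 238 CPM. SPP1 (osteopontin) and LTBP1, which holds latent TGF-beta in the matrix, had the most counts of the list and overlapped, at 501 to 2653 CPM against 658 to 1711 CPM and at 306 to 433 CPM against 138 to 358 CPM.

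Inside the cell, integrins are coupled to actin by talin, kindlins, vinculin and their partners. Of 26 such genes, all tested, 9 were higher and 17 lower, with a median of -0.21. edgeR called 0. At an unadjusted p under 0.05 it counted 2 higher, or 7.69%, against 3.57% of all tested genes. It counted 0 lower, against 3.54%. The stages did not overlap in 1 gene higher and 2 lower in early luteal tissue, or 11.5%, against 17.2% of all tested genes. The 2 with an unadjusted p under 0.05 were KANK1, a scaffold at the rim of adhesions, and FERMT1, the epithelial kindlin that activates integrins. KANK1 stood at 40.9, 56.5 and 38.5 CPM in post-ovulatory and at 57.7, 90.6 and 92.6 CPM in early luteal replicates, without overlap. FERMT1 stood at 42.7, 71.9 and 61.8 CPM against 68.0, 119 and 116 CPM, and early luteal replicate 1 lay below post-ovulatory replicate 2. PARVB and BCAR1 were lower in early luteal tissue without overlap. PARVB had few counts, with 1.22, 0 and 1.79 CPM in early luteal and 2.21 to 5.81 CPM in post-ovulatory libraries. BCAR1 stood at 27.6, 24.9 and 29.1 CPM in post-ovulatory and at 23.4, 3.25 and 17.2 CPM in early luteal replicates. FBLIM1, a filamin-binding adapter, stood at 41.9, 56.1 and 60.6 CPM against 20.9, 18.3 and 56.3 CPM. VCL (vinculin) and ACTN4 (an actinin), with the most counts of the list, overlapped.

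**Figure D5:**
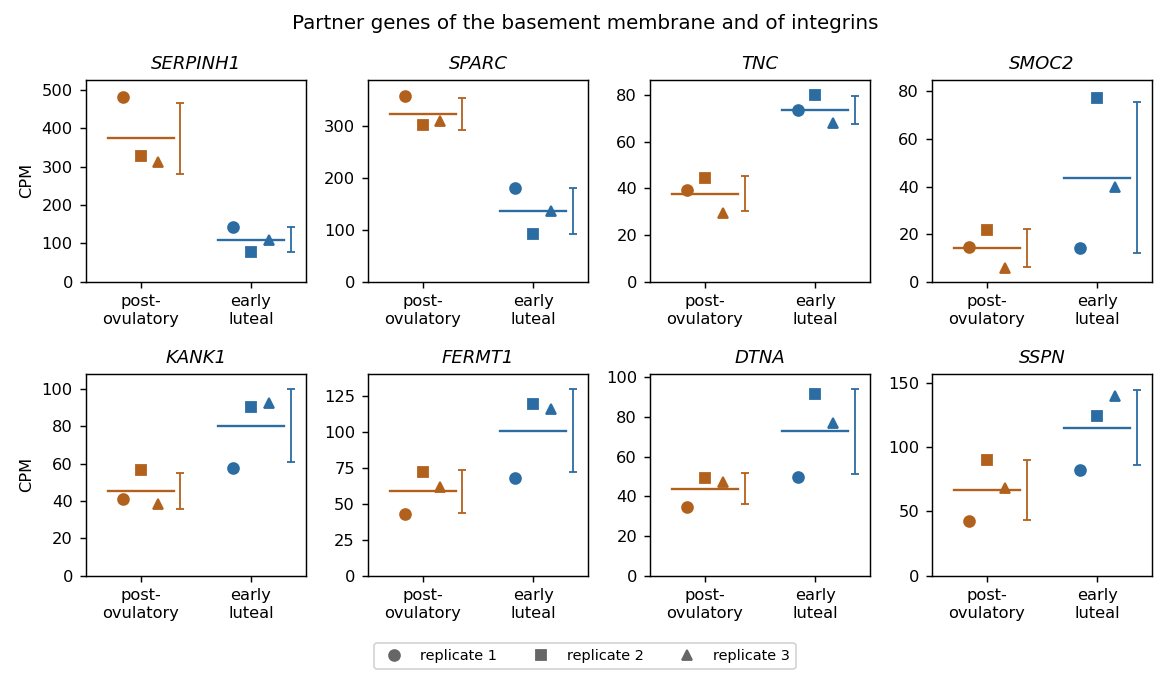
CPM of 8 partner genes by stage, with symbols for the replicate, horizontal lines for the mean and error bars for the SD. SERPINH1 and SPARC are lower and TNC and KANK1 higher in all 3 early luteal libraries, whereas SMOC2, FERMT1 and SSPN overlap between the stages and DTNA is separated by a very small gap.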

How the data were processed

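The authors deposited 1 table of raw counts per Ensembl gene for the 6 libraries, with no normalization. Per the labels' protocols, polyadenylated RNA of ampulla tissue was made into stranded libraries and read from both ends (Illumina NextSeq2000). The tools named are STAR, Trim Galore and FastQC 0.11.4, with build Sscrofa11.1, per the submitters' processing notes. How reads were counted, on which strand and with which annotation release is not given in the sources used here. Columns were matched to samples by header words, since the header lacks a tab. No column of values was left unused (0). Symbols came from a table pairing 15623 identifiers with symbols.

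From the counts, the edgeR 4.0.16 quasi-likelihood test (R 4.3.3, robust) was fitted on all genes with TMM scaling and filterByExpr, which left 17920 genes. Tests were two-sided, with Benjamini-Hochberg adjustment and a threshold of 0.05. The SE is the size of the log2 fold change divided by the root of the F statistic. Centred log2 CPM used a prior count of 2. Floors cover counting error only. The common biological coefficient of variation was 0.485. Scripts were tested on simulated data.

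The genes, their roles and the pathway and marker lists were chosen with earlier results of these data known. Among the 35 genes, values in every library are given for those whose stages did not overlap and those with an unadjusted p under 0.05. They are also given for COL4A1 to COL4A4, and for the gene with the most counts in its role except LAMB2, ITGA1 and ITGA9. Others were added after their values were seen, as were BCAR1, VTN and NPNT. From each pathway list up to 4 genes with the lowest p and up to 2 with the most counts are named. Alternatives were DESeq2 1.42.0 and limma 3.58.1 voom, other scalings and filters, the replicate number as a block, and each library left out in turn. Loci are RefSeq positions on Sscrofa11.1.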

Additional observations from a re-analysis of the deposited data

How the results depend on the processing

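The count of genes called over the whole table, 0 in the main test, was 8 with no filter on low counts and 174 with the DESeq2 test, and 0 in each of the other alternatives, the range without each library in turn being 0 to 0. The count among the basement membrane and integrin genes was 0 in all 14 alternatives. Their median log2 fold change of -0.31 ran from -0.65 (without early luteal replicate 1) to -0.11 (without early luteal replicate 2), with -0.16 without post-ovulatory replicate 2. The replicate number as a block gave a median of -0.46 and 0 calls. The replicate numbers were not taken as pairs, since deviations from the stage means correlated at 0.05, -0.08 and 0.13 for numbers 1, 2 and 3, and not every library correlated best with its own number. Of 490 single-gene values under the alternatives, 24 changed direction, in 11 genes. COL4A6 stood at -0.020 with library totals alone, -0.021 with no filter and -0.0072 with the block. The other reversals came from leaving out a library. The ranges without each library were -0.34 to 0.11 for COL4A5, -0.39 to 0.42 for COL4A6, -0.15 to 0.59 for LAMA4, -0.99 to 0.27 for LAMA5, -1.11 to 0.089 for NID1, -0.73 to 0.33 for HSPG2, -0.66 to 0.39 for AGRN, -0.046 to 0.56 for ITGA1, -0.32 to 0.51 for ITGB1, -1.66 to 0.65 for ITGB3 and -1.23 to 0.050 for ITGB4. The unadjusted p of ITGA8 and ITGB6 was under 0.05 in 14 of 14 alternatives, and that of ITGAV and COL4A4 in 13, the exception for both being the fit without post-ovulatory replicate 3. With 3 libraries a stage, low counts limit ITGB6, COL4A3 and COL4A4.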

Other observations

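Dystroglycan works within the dystrophin complex and binds laminin through sugars added by a set of glycosyltransferases. Of 24 such genes, 22 had a row and were tested, 11 higher and 11 lower in early luteal tissue, with a median log2 fold change of 0.10 (edgeR called 0). At an unadjusted p under 0.05 it counted 3 higher, or 13.6%, where 3.57% of all tested genes were, and 0 lower, where 3.54% were. The 3 were DTNA (dystrobrevin alpha), SGCE (a sarcoglycan) and SSPN (sarcospan), and the stages overlapped in SGCE and SSPN. Without early luteal replicate 2 their unadjusted p in edgeR was 0.088, 0.097 and 0.088. In the list the stages did not overlap in 2 genes higher and 2 lower, or 18.2%, against 17.2% of all tested genes. DTNA stood at 34.9, 49.4 and 47.0 CPM in post-ovulatory and at 49.6, 91.6 and 77.1 CPM in early luteal replicates, and SSPN at 42.6, 89.7 and 67.8 CPM against 82.4, 124 and 139 CPM. SGCE stood at 27.9, 37.8 and 24.4 CPM against 37.6, 68.0 and 46.4 CPM, and SNTB1, a syntrophin, at 15.6, 18.4 and 22.7 CPM against 18.9, 49.99 and 36.8 CPM. UTRN and DMD, with the most counts, overlapped between the stages. DAG1 itself stood lower in all 3 early luteal libraries.

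Of 18 other laminin chains, integrins and hemidesmosome genes, 17 had a row and 15 were tested, 4 higher and 11 lower, with a median of -0.28 (edgeR called 0, and 0 had an unadjusted p under 0.05). Of all tested genes, 7.11% had such a p. The stages did not overlap in 1 gene of this list, or 6.67%, against 17.2% of all tested genes. That gene was ITGA10, another collagen receptor chain. ITGA10 stood at 6.40, 10.4 and 8.70 CPM in post-ovulatory and 14.4, 13.8 and 10.6 CPM in early luteal replicates. PLEC (plectin), which ties ITGB4 to keratin, stood at 168, 279 and 240 CPM against 199, 56.6 and 187 CPM, and so was low in early luteal replicate 2, as ITGB4 was. DST, which has the same role in hemidesmosomes, stood at 87.5, 151 and 131 CPM against 125, 186 and 151 CPM and was highest in that library. ITGB7 and ITGA11 had few counts, stood lower on average in early luteal tissue (log2 fold changes -1.37 and -1.46) and overlapped. ITGB7 stood at 4.02, 13.9 and 2.72 CPM in post-ovulatory and at 5.86, 1.22 and 0.731 CPM in early luteal replicates. For ITGA11 the values were 6.25, 2.15 and 1.31 CPM against 2.06, 0 and 1.33 CPM.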
